A study of Homo sapiens with 5 samples.

Results

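The TRIM genes encode tripartite motif proteins, a large family of ubiquitin ligases, and their transcripts were compared between drug-tolerant persister cells and parental cells of the established luminal breast cancer line BT474, in which the HER2 gene is amplified. Members were the rows of the authors' deposited table whose symbol is TRIM followed by a number, with or without a closing letter or digit. This gave 71 genes of the 18512 in the table, and where a symbol stood on 2 rows (6 members) the row with the higher mean was used. Persister cells (3 libraries) had survived 9 days of lapatinib at 2 µM, renewed every 3 days. Lapatinib blocks the kinase activity of HER2 and EGFR. Parental cells (2 libraries) were kept alongside without lapatinib, and both groups had 0.01% DMSO. All libraries came from the same line, so the results describe 1 tumour's cells. The table gives 1 FPKM value per gene and group (fragments scaled for transcript length and sequencing depth) and the q-value of the authors' own comparison. All values below are therefore the authors' group values, with no SD, no n and unknown depth. In bulk RNA, fewer cells of a type and less RNA per cell cannot be told apart, and neither can the drug, growth arrest and the traits of surviving cells.

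A typical TRIM protein has, from its amino end, a RING finger, 1 or more B-boxes and a coiled coil through which it forms dimers. The RING finger brings in a ubiquitin-loaded E2 enzyme, and the carboxyl end, which differs between subfamilies, selects the target. Many members with a PRY-SPRY end act in the response to viruses, downstream of RNA sensors or directly on viral capsids. Those with a PHD finger and bromodomain are nuclear and silence or activate genes, and others act in autophagy, in muscle or in neurons.

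A gene was called when its q-value in the authors' deposited table was under 0.05. Genes with a q-value of 1 were taken as not covered by their test. Of the 71 TRIM genes, 45 were covered, and of these 22 were called higher in persister cells, 12 were called lower and 11 were not called. Over all 13617 genes covered, 69.9% were called in either direction, 30.9% higher and 39.0% lower, whereas 48.9% of the covered TRIM genes were higher and 26.7% lower. Differences are given as log2(FPKM + 1) of persister minus parental cells, a scale that understates changes of low transcripts. On it the median over covered TRIM genes was 0.085, beside -0.038 over all covered genes. The sizes were modest, because the median absolute difference was 0.28 for TRIM genes and 0.31 for all covered genes. Only TRIM29, TRIM2 and TRIM52 were called higher by at least 1 (2.98% of all covered genes were), and only TRIM14 lower by at least 1 (6.01%).

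Directions depend on how the groups are scaled. The FPKM values summed to 259812 in persister and 332885 in parental cells over all symbols, and the 10291 genes with at least 1 FPKM in both groups had a median difference of -0.11. Relative to that median, all 34 called TRIM genes kept their direction. With both groups scaled to the same sum, the 22 rises kept theirs, but 5 of the 12 falls turned positive (TRIM16, TRIM24, TRIM28, TRIM47 and TRIM68). The authors' q-values were kept, so only directions could change. On that scaling 60.0% of covered TRIM genes were called and positive and 15.6% called and negative. Over all covered genes these shares were 38.3% and 31.5%. The other 7 falls stayed negative but shrank. With equal sums TRIM14 was at -0.83, TRIM5 at -0.52, TRIM6 at -0.50 and TRIM59 at -0.14. TRIM3 (-0.049), TRIM36 (-0.043) and TRIM37 (-0.013) were then as near 0 as the falls that turned positive.

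**Figure D1:**
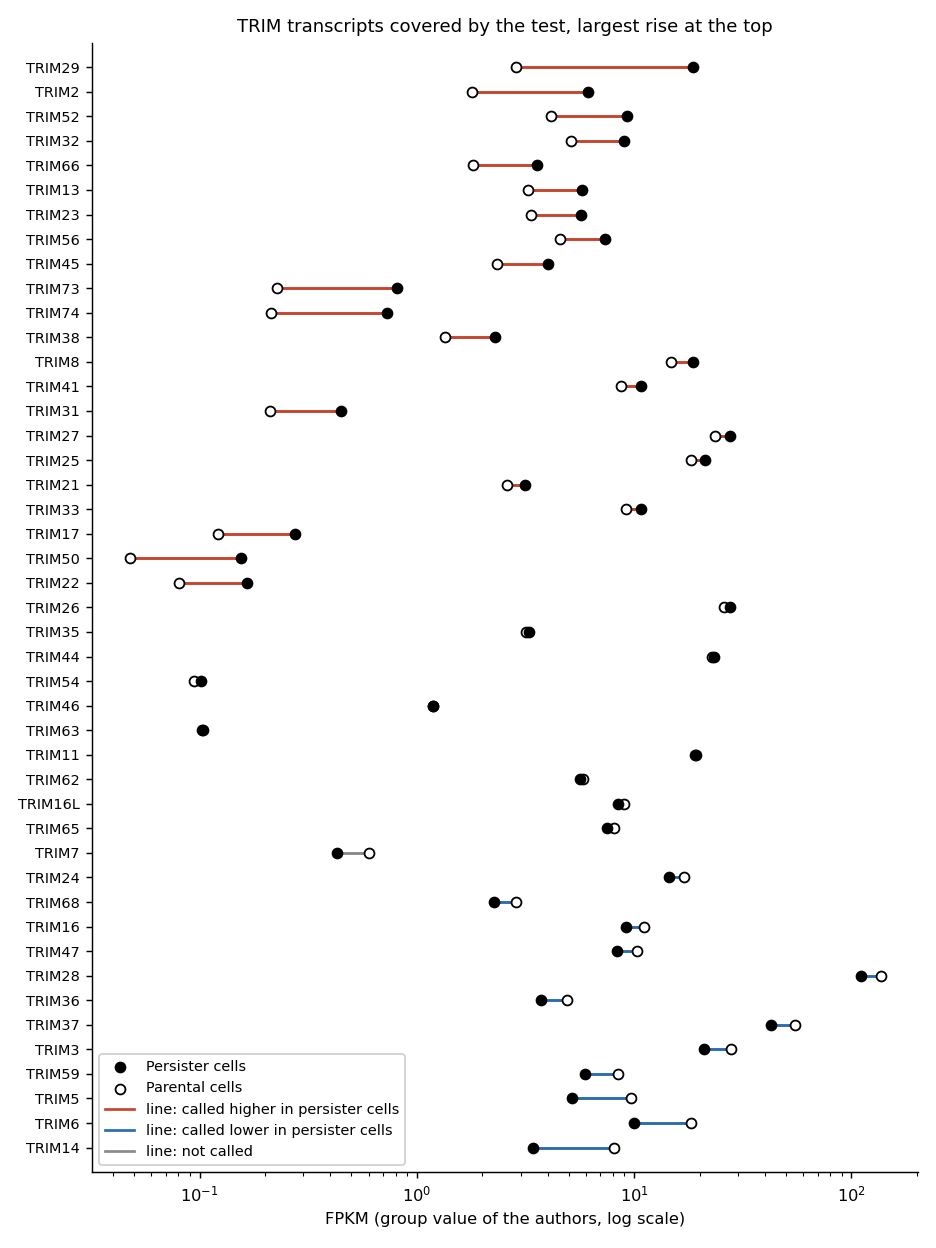
Group FPKM values (log axis) of the 45 TRIM genes covered by the authors' test, with filled points for persister cells and open points for parental cells. Line colour gives the call, and genes are ordered by their log2(FPKM + 1) difference, from TRIM29 at 2.34 to TRIM14 at -1.03; the falls of TRIM16, TRIM24, TRIM28, TRIM47 and TRIM68 turn positive when both groups are scaled to the same sum.

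**Figure D2:**
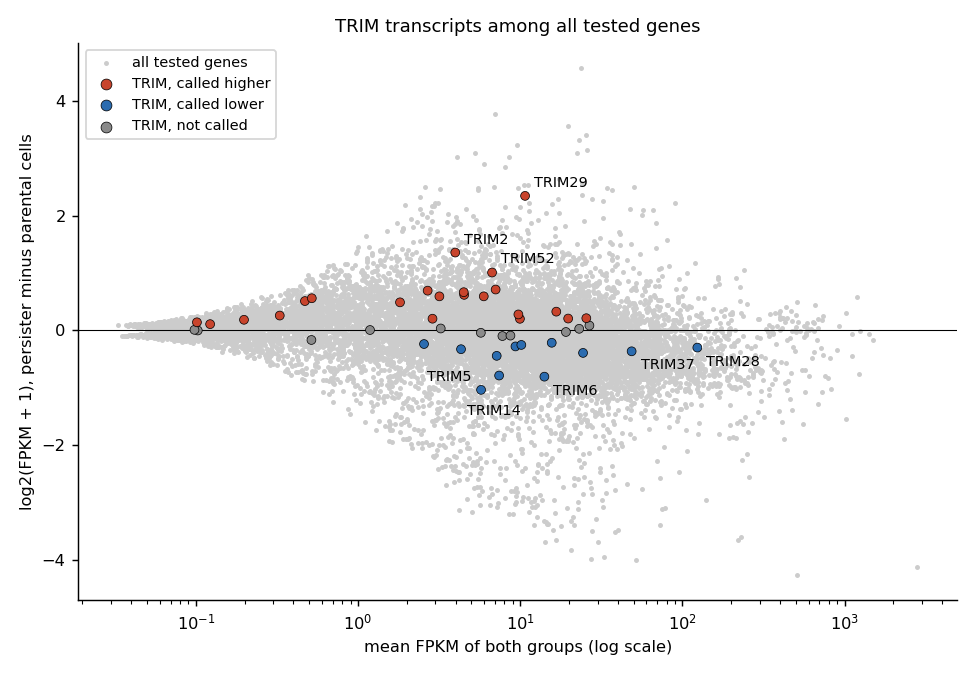
Log2(FPKM + 1) difference of persister minus parental cells against the mean FPKM of both groups (log axis) for all 13617 covered genes in grey, with TRIM genes coloured by call. TRIM29 is near the upper edge of the cloud, and the other TRIM genes lie inside it between 1.36 and -1.03; with both groups scaled to the same sum, TRIM28 (0.056, turned positive) and TRIM37 (-0.013) are both near 0.

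Summed over the 71 genes, TRIM transcripts reached 500 FPKM in persister cells and 515 FPKM in parental cells, a ratio of 0.971 as deposited and of 1.24 with equal sums, so the direction of the sum depends on the scaling. The makeup of the sum does not depend on it. TRIM28, TRIM37 and the third-ranked gene of each group together held 36.2% of that sum in persister and 42.6% in parental cells. TRIM28 alone held 22.2% in persister and 26.5% in parental cells. TRIM29 stood 10th by FPKM among the 71 in persister cells and 29th in parental cells, the widest move among the members above 1 FPKM in both groups. TRIM2 stood 22nd in persister and 34th in parental cells, and TRIM52 15th in persister and 25th in parental cells.

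TRIM29 had the largest rise. It encodes a RING-less member found in keratinocytes and other basal epithelial cells, where it acts in the DNA damage response. Its level was 18.6 FPKM in persister cells and 2.86 FPKM in parental cells, a 6.49-fold difference of 2.34 on the log2 scale. The authors' deposited table gives its q as 0. Of the 13617 covered genes, 28, TRIM29 included, had a rise as large or larger, and 132 had a fall of at least that size. The other covered members grouped as RING-less, TRIM14, TRIM16, TRIM16L and TRIM44, were lower or not called. TRIM66, also without a RING finger but grouped by its PHD finger and bromodomain, was called higher (0.69). TRIM14, a mitochondrial adaptor of the antiviral sensor pathway, had 3.42 FPKM in persister and 8.06 FPKM in parental cells, the largest fall of the family (-1.03). TRIM16, known as oestrogen-responsive B-box protein and a factor in the handling of damaged lysosomes, had 9.19 FPKM in persister and 11.1 FPKM in parental cells and was called lower (-0.25), a direction that equal sums turn positive. Its close copy TRIM16L had 8.41 FPKM in persister and 9.02 FPKM in parental cells and was not called. TRIM44, which carries a zinc finger of the kind found in deubiquitinases, was nearly level at 23.4 FPKM in persister and 22.9 FPKM in parental cells and was not called.

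Of the 3 covered members with NHL repeats, a propeller that binds RNA or protein, 2 (66.7%) were called higher and 1 (33.3%) lower. Over all covered genes these shares were 30.9% and 39.0%. TRIM2, a ligase best known for controlling neurofilament light chain in neurons, was at 6.16 FPKM in persister and 1.799 FPKM in parental cells, a 3.42-fold difference (1.36). TRIM32, mutated in a limb-girdle muscular dystrophy, was at 9.01 FPKM in persister and 5.11 FPKM in parental cells (0.71). TRIM3, the closest relative of TRIM2, went the other way with 21.0 FPKM in persister and 27.9 FPKM in parental cells (-0.39 as deposited and near 0 with equal sums). These close relatives thus lay closer together in persister than in parental cells. TRIM71, the stem cell regulator of this subfamily, was too low to be covered, at 0.056 FPKM in persister and 0.0036 FPKM in parental cells.

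All 6 covered members grouped as without a carboxyl-terminal domain were called higher, against 30.9% of all covered genes, with a median of 0.54. Members grouped as RING-less, such as TRIM29 and TRIM44, were counted apart, whatever their carboxyl end. TRIM52, a short nuclear RING and B-box protein, had 9.30 FPKM in persister and 4.12 FPKM in parental cells (1.01). TRIM56, which promotes signalling from the DNA and RNA sensors of innate immunity, had 7.38 FPKM in persister and 4.55 FPKM in parental cells (0.59). TRIM8, a regulator of cytokine signalling through SOCS proteins and NF-κB, had 18.7 FPKM in persister and 14.7 FPKM in parental cells (0.33). The remaining 3 were below 1 FPKM in both groups. TRIM73 had 0.811 FPKM in persister and 0.228 FPKM in parental cells, and TRIM74 had 0.729 FPKM in persister and 0.213 FPKM in parental cells. These are near-identical copies: 91.7% of the 50-base words of the TRIM73 transcript also occur in TRIM74, so that reads of one could be counted for the other. TRIM31, a ligase of mitochondrial antiviral signalling, had 0.448 FPKM in persister and 0.211 FPKM in parental cells, while its other row was listed at 0 in both groups and was not covered.

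**Figure D3:**
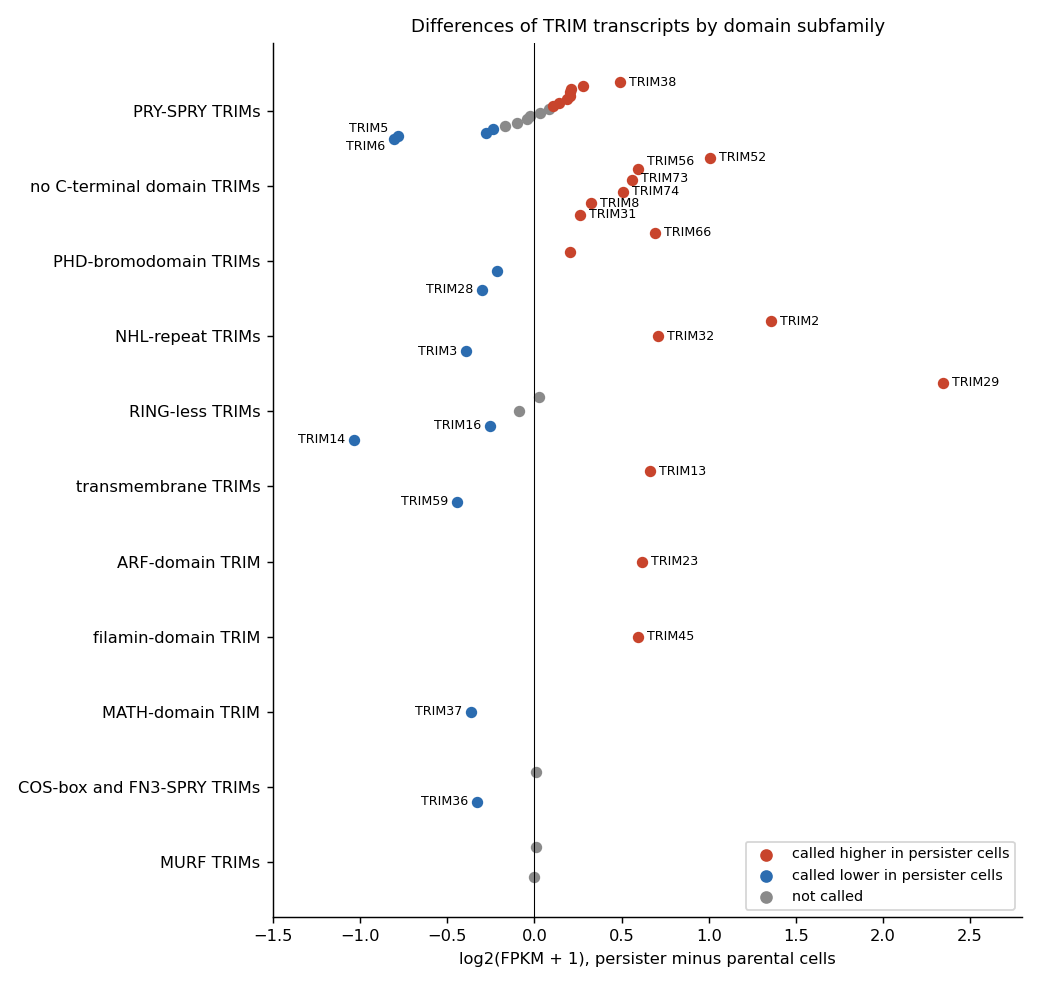
Log2(FPKM + 1) difference of persister minus parental cells for the 45 covered TRIM genes, by domain subfamily and coloured by call, with the names of those that differ most. Each gene is placed in 1 group only. All 6 members grouped as without a carboxyl-terminal domain lie to the right of 0. The PRY-SPRY, PHD-bromodomain, NHL-repeat and RING-less members lie on both sides. With both groups scaled to the same sum, the falls of TRIM16, TRIM24, TRIM28, TRIM47 and TRIM68 turn positive.

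The 4 members with a PHD finger and bromodomain, all nuclear regulators of transcription, were split. TRIM28, the universal corepressor of KRAB zinc finger proteins, was the most abundant TRIM transcript in both groups. It had 111 FPKM in persister and 137 FPKM in parental cells (-0.30, with q = 7.08e-06 in the authors' deposited table), a fall that equal sums turn positive. TRIM24, a cofactor of nuclear receptors and a ligase for p53, had 14.4 FPKM in persister and 16.9 FPKM in parental cells (-0.21), and equal sums turn its fall positive as well. TRIM33, which acts on SMAD proteins in TGF-β signalling, had 10.7 FPKM in persister and 9.20 FPKM in parental cells and was called higher (0.20). TRIM66, an HP1-binding member without a RING finger, had 3.56 FPKM in persister and 1.82 FPKM in parental cells (0.69).

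Among partners of TRIM28 in silencing, 4 of 12 covered genes (33.3%) were called higher and 4 (33.3%) lower, shares near the 30.9% and 39.0% of all covered genes, with a median of -0.0031, and equal sums turned 1 of those falls (HDAC1) positive. The histone methyltransferase SETDB1 had 13.2 FPKM in persister and 8.42 FPKM in parental cells. HP1 proteins CBX1 and CBX3 were called lower, at 20.5 FPKM in persister against 35.2 FPKM in parental cells and at 103 FPKM in persister against 156 FPKM in parental cells. The deacetylase HDAC2 had 15.1 FPKM in persister and 27.0 FPKM in parental cells. Among signalling partners of TRIM24 and TRIM33, 7 of 12 (58.3%) were called higher and 1 (8.33%) lower, against 30.9% and 39.0% of all covered genes, with a median of 0.35. The receptors of the TGF-β pathway were among them: TGFBR1 had 56.5 FPKM in persister and 22.7 FPKM in parental cells, and TGFBR2 had 9.52 FPKM in persister and 4.001 FPKM in parental cells. The retinoic acid receptor gene RARG had 16.3 FPKM in persister and 9.01 FPKM in parental cells. MDM2, the main ligase of p53, was the member called lower, at 11.5 FPKM in persister and 17.6 FPKM in parental cells.

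PRY-SPRY members, the largest subfamily, moved both ways. Members grouped as RING-less, TRIM14, TRIM16 and TRIM16L among them, were counted apart, whatever their carboxyl end. Of 37 members grouped as PRY-SPRY, 18 were covered. Of these, 8 (44.4%) were called higher and 4 (22.2%) lower, against 30.9% and 39.0% of all covered genes, with a median of 0.059. TRIM6 and TRIM5 fell by more than any other of them rose. TRIM6, which makes free ubiquitin chains that activate the kinase IKKε, had 10.0 FPKM in persister and 18.2 FPKM in parental cells (-0.80). Its row also holds the transcripts of TRIM34 and of a read-through of both genes, so the value belongs to the pair. TRIM5, whose protein traps retroviral capsids, had 5.18 FPKM in persister and 9.66 FPKM in parental cells (-0.79, with q listed as 0 in the authors' deposited table). TRIM22, the gene next to TRIM5 and an interferon-induced restriction factor, was called higher, at 0.165 FPKM in persister and 0.0801 FPKM in parental cells, and so was near the lower limit of what was covered. The 2 other falls were small and turn positive with equal sums. They were TRIM47 (8.36 FPKM in persister and 10.4 FPKM in parental cells) and TRIM68 (2.26 FPKM in persister and 2.85 FPKM in parental cells), a coactivator of the androgen receptor.

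The rises among PRY-SPRY members were led by TRIM38, a ligase that restrains Toll-like receptor signalling, with 2.29 FPKM in persister and 1.34 FPKM in parental cells (0.49). TRIM41 had 10.8 FPKM in persister and 8.72 FPKM in parental cells (0.28). TRIM27, known as a fusion partner of RET, had 27.5 FPKM in persister and 23.6 FPKM in parental cells (0.21). TRIM25, the oestrogen-responsive finger protein that ubiquitinates the RNA sensor RIG-I, had 21.3 FPKM in persister and 18.3 FPKM in parental cells (0.21). TRIM21, the cytosolic antibody receptor, had 3.16 FPKM in persister and 2.61 FPKM in parental cells, with q = 0.0375 in the authors' deposited table, so its call is lost at a threshold of 0.01, as is that of TRIM33. TRIM17 (0.275 FPKM in persister and 0.122 FPKM in parental cells) and TRIM50 (0.156 FPKM in persister and 0.0478 FPKM in parental cells) were called higher at very low levels. TRIM26, TRIM11, TRIM35, TRIM62, TRIM65 and TRIM7 were not called. TRIM26 was at 27.6 FPKM in persister and 25.9 FPKM in parental cells, and TRIM11 at 19.0 FPKM in persister and 19.3 FPKM in parental cells.

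Sequences upstream of these antiviral members are shown because the rows with the 3 largest falls of the family have a feature in common. Each holds a gene with a letter match to the interferon-stimulated response element in a promoter: TRIM14, TRIM5 and, on the TRIM6 row, TRIM34. No match was found for TRIM6 itself, and the part of TRIM34 in that row's value is not known. All 3 rows share transcripts, sequence or exon bases with other genes. The windows run from 250 bases before to 50 bases after a gene's start in RefSeq (GRCh38.p14), and were found for 55 of the 71 members and for TRIM34 and TRIM49D1, which share a row with a member. Capitals mark GAAA, any 2 bases and GAAA, or the reverse complement, with overlapping matches joined. The windows of TRIM14 and TRIM5 are given whole, and for the other covered members the match is given with 20 bases on each side or up to the end of the window.
TRIM14, called lower, chr9:98119173-98119472, minus strand: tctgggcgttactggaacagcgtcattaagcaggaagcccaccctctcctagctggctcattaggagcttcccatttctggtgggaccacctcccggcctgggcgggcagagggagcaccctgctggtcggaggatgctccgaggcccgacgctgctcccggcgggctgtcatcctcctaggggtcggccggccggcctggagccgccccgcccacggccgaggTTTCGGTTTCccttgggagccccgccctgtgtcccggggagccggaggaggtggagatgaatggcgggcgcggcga
TRIM5, called lower, chr11:5685025-5685324, minus strand: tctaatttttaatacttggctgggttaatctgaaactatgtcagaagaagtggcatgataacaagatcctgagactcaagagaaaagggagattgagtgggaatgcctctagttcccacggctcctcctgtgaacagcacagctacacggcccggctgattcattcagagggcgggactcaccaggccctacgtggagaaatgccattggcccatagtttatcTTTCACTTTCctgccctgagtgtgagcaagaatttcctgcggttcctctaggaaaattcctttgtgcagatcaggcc
TRIM34, on the TRIM6 row called lower, chr11:5624891-5624940, plus strand: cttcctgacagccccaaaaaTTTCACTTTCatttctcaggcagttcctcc
TRIM16, called lower, chr17:15683002-15683051, minus strand: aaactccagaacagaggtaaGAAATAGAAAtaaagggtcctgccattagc
TRIM21, called higher, chr11:4393653-4393705, minus strand: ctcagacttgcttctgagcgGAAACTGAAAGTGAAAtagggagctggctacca
TRIM2, called higher, chr4:153151926-153151975, plus strand: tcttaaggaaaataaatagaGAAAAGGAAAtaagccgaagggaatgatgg
TRIM26, not called, chr6:30213565-30213620, minus strand: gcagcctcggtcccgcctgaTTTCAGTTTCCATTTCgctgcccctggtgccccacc
TRIM44, not called, chr11:35662720-35662769, plus strand: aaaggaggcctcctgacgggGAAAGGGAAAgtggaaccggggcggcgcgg

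The match ended 16 bases before the start of TRIM14, 17 bases before that of TRIM5 and 80 bases before that of TRIM34, and it began 17 bases after that of TRIM21. It was held by 10 of the 57 TRIM genes with a promoter (17.5%), against 4.38% of the 27305 genes of the promoter table. Of those 10, 4 were on rows called lower (of 11 such genes with a promoter), 2 were called higher (of 16), 2 were not called (of 8) and 2, TRIM64C and TRIM69, were not covered (of 22). Genes with the match thus stood in each class, and a letter match is no evidence of binding. This motif was singled out after its matches were seen, among 11 that were searched on both strands. Of the others, the FOXO motif GTAAACA was in 1 TRIM promoter (TRIM2, at another of its starts) and in 4.19% of genes. The E2F motifs TTTCCCGC (TRIM44 and TRIM7, 1.98% of genes) and TTTGGCGC (TRIM37 and TRIM26, 0.795% of genes) were rare, as was the cyclic AMP element TGACGTCA (TRIM66, 2.25% of genes). The oestrogen response element (GGTCA, any 3 bases and TGACC, 0.0732% of genes) and the lysosomal CLEAR motif TCACGTGA (1.18% of genes) had no match in TRIM promoters. The antioxidant element TGACNNNGC was in 5 TRIM promoters (8.77%, against 16.1% of genes) and the GAS element TTCNNNGAA in 12 (21.1%, against 9.38% of genes), 7 of them of genes not covered by the test. The GC box GGGCGG was in 28 (49.1%, against 48.3% of genes) and the CCAAT box in 26 (45.6%, against 39.7% of genes).

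Interferon-stimulated genes as a list did not lean one way. Of 26 covered, 7 (26.9%) were called higher and 6 (23.1%) lower, both below the shares of all covered genes (30.9% and 39.0%), with a median of 0.025. GBP2 had 17.2 FPKM in persister and 5.07 FPKM in parental cells, and STAT2, a subunit of the factor that binds the interferon element, had 18.9 FPKM in persister and 9.37 FPKM in parental cells. IFI6 had 1.25 FPKM in persister and 5.46 FPKM in parental cells. OAS3 had 0.356 FPKM in persister and 1.61 FPKM in parental cells. MX1, a classic interferon-induced gene, was not called, at 0.261 FPKM in persister and 0.327 FPKM in parental cells. In the RNA sensing list, 5 of 16 (31.2%) were called higher and 5 (31.2%) lower, shares near the 30.9% and 39.0% of all covered genes, with a median of 0.00039, and equal sums turned 3 of the falls (TBK1, TRAF3 and TICAM1) positive. The adaptor MAVS had 25.03 FPKM in persister and 17.8 FPKM in parental cells, TRAF6 had 4.71 FPKM in persister and 2.82 FPKM in parental cells, and RIG-I (DDX58) had 1.26 FPKM in persister and 0.76 FPKM in parental cells. IFIH1, which encodes the sensor MDA5, had 2.03 FPKM in persister and 3.19 FPKM in parental cells.

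Single-member subfamilies and the membrane-bound pair gave 3 rises and 2 falls, beside 30.9% higher and 39.0% lower over all covered genes. TRIM23, which joins a RING finger to an ARF GTPase domain and activates TBK1 in virus-induced autophagy, had 5.68 FPKM in persister and 3.35 FPKM in parental cells (0.62). TRIM45, the filamin-domain member known to repress MAPK-driven transcription, had 4.02 FPKM in persister and 2.33 FPKM in parental cells (0.59). TRIM37, a peroxisomal and centrosomal ligase with a MATH domain, was the second most abundant member and had 42.5 FPKM in persister and 54.9 FPKM in parental cells (-0.36 as deposited and near 0 with equal sums, with q = 1.59e-07 in the authors' deposited table). TRIM13, a ligase of the endoplasmic reticulum membrane in protein quality control, had 5.73 FPKM in persister and 3.25 FPKM in parental cells (0.67), on a row that also holds transcripts of KCNRG. TRIM59, the other membrane-bound member, had 5.93 FPKM in persister and 8.41 FPKM in parental cells (-0.44). Several TRIM proteins assemble with the autophagy machinery. Among genes for autophagy receptors, core kinases and other core autophagy proteins, 11 of 16 (68.8%) were called higher and 1 (6.25%) lower. Over all covered genes these shares were 30.9% and 39.0%, and the median of the list was 0.50. Optineurin (OPTN) had 5.32 FPKM in persister and 1.13 FPKM in parental cells, GABARAPL1 had 26.6 FPKM in persister and 10.2 FPKM in parental cells, and ATG14 had 8.30 FPKM in persister and 3.51 FPKM in parental cells. CALCOCO2 was the one called lower, at 72.7 FPKM in persister and 82.2 FPKM in parental cells, a fall that equal sums turn positive.

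Members with a COS box, a microtubule-binding element, or of the muscle RING finger group were mostly low. TRIM36, a microtubule-associated ligase, had 3.72 FPKM in persister and 4.92 FPKM in parental cells and was called lower (-0.33 as deposited and near 0 with equal sums). TRIM46, a microtubule organiser of the axon, had 1.19 FPKM in persister and 1.18 FPKM in parental cells and was not called. TRIM63, the muscle atrophy ligase MuRF1 that FOXO factors induce in muscle, had 0.103 FPKM in each group and was not called, and TRIM54 had 0.102 FPKM in persister and 0.0943 FPKM in parental cells. Of the 26 members not covered by the test, 10 were listed at 0 in both groups and 5 at 0 in 1 group, and the highest of all 26 was TRIM71. They include TRIM4, TRIM15, TRIM42, TRIM55 and the TRIM43, TRIM49 and TRIM64 copies, some of which share most of their sequence. A value at or near 0 may be a failed estimate, since ERBB2 was listed at 0 in this HER2-amplified line, so such members cannot be taken as unexpressed. TRIM39 stood only on a read-through row with RPP21, outside the rule, at 41.8 FPKM in persister and 61.1 FPKM in parental cells.

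Relatives of the family under other symbols gave 3 rises and 2 falls among 8 covered of 14. The shares over all covered genes were 30.9% higher and 39.0% lower, and 8 genes are too few to tell this list from them. MID2, a microtubule-bound ligase, had 1.66 FPKM in persister and 3.01 FPKM in parental cells, while its paralogue MID1 had 3.95 FPKM in persister and 3.86 FPKM in parental cells and was not called. PML, the organiser of nuclear bodies, had 5.30 FPKM in persister and 4.43 FPKM in parental cells and was not called. CMYA5 had 0.925 FPKM in persister and 0.212 FPKM in parental cells, and BSPRY had 15.5 FPKM in persister and 20.8 FPKM in parental cells.

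Of 17 covered genes for E1 and E2 enzymes, which supply TRIM ligases with ubiquitin, 10 (58.8%) were called lower and 2 (11.8%) higher, against 39.0% and 30.9% of all covered genes, with a median of -0.28. With equal sums, 3 of the falls (UBA1, UBE2D3 and UBE2A) turned positive. UBE2V2, a cofactor of the E2 enzyme UBE2N, had 22.5 FPKM in persister and 39.7 FPKM in parental cells. UBA6, an activating enzyme, had 10.2 FPKM in persister and 16.1 FPKM in parental cells, and UBE2D2, a common partner of TRIM RING fingers, had 27.8 FPKM in persister and 40.7 FPKM in parental cells. UBE2B was higher, at 27.7 FPKM in persister and 19.3 FPKM in parental cells. Of 7 covered precursors of ubiquitin and related modifiers, 6 (85.7%, against 39.0% of all covered genes) were called lower and none higher, but with equal sums 5 of the 6 turned positive, SUMO3 being the exception. UBB, a polyubiquitin gene, was at 643 FPKM in persister and 791 FPKM in parental cells, and SUMO3 was at 53.4 FPKM in persister and 80.1 FPKM in parental cells. Other ligase families were set beside TRIM genes as a description. Of 76 covered RNF genes, 34.2% were called higher and 30.3% lower, with a median of 0.037. Of 56 covered genes for F-box proteins, 25% were called higher and 26.8% lower, with a median of 0.0010. With equal sums and the authors' q-values kept, 42.1% of the RNF genes were called and positive and 22.4% called and negative. For the F-box genes these shares were 32.1% and 19.6%. The difference between families was not tested.

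**Figure D4:**
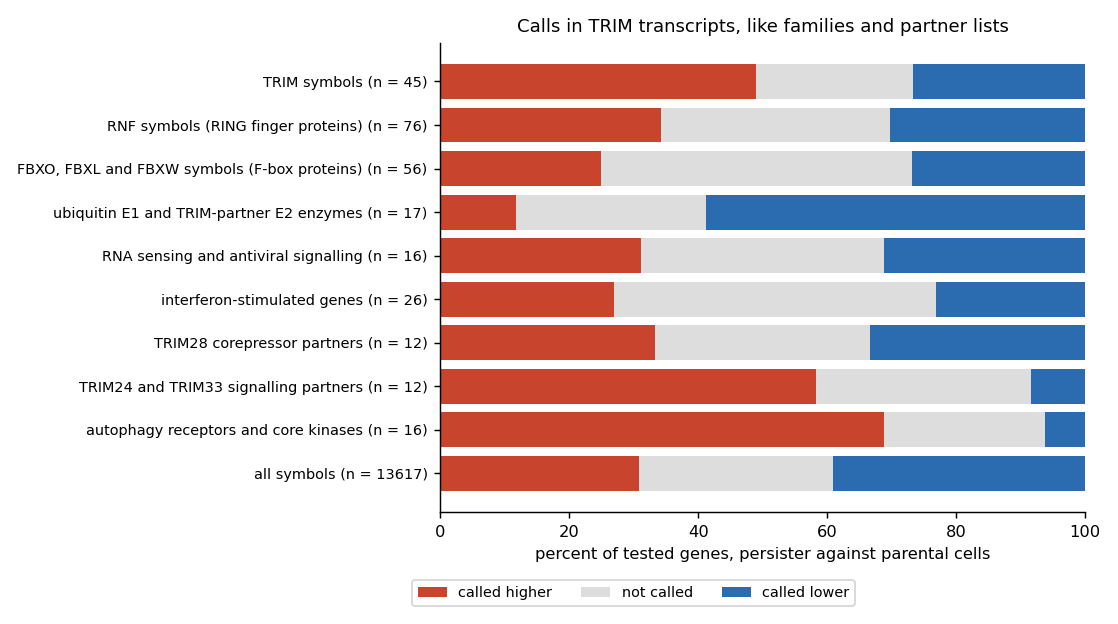
Percent of covered genes called higher, not called and called lower in persister against parental cells (as deposited) for TRIM genes, RNF and F-box genes, partner lists and all genes, with the number covered in brackets. TRIM genes have 48.9% higher and 26.7% lower, all genes 30.9% higher and 39.0% lower; with both groups scaled to the same sum, 5 of the 12 TRIM falls turn positive.

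Several TRIM rows share reads with other genes or could do so, since the library kit kept no strand. The exons of TRIM14 overlap those of NANS on the other strand over 7.72% of their bases, and NANS itself had 34.2 FPKM in persister and 81.3 FPKM in parental cells. The exons of TRIM59 overlap those of the condensin gene SMC4 on the other strand over 19.8% of their bases, and SMC4 had 14.7 FPKM in persister and 64.5 FPKM in parental cells. Both partners fell further than the TRIM gene, and their part in the TRIM values was not tested. TRIM47 overlaps a non-coding antisense gene over 51.5% of its exon bases, TRIM52 a non-coding one over 28.5% and TRIM8 one over 14.1%, and these partners have no value in the table. TRIM37 overlaps PPM1E over 5.18%, which went the other way, at 1.05 FPKM in persister and 0.5999 FPKM in parental cells. TRIM16 shares 57.8% of its 50-base words with other genes, TRIM59 30.3% and TRIM5 10.6%. Of the covered members, 11 had an exon overlap with a gene that was covered, a shared row or at least 10% of shared words. Leaving them out left 18 called higher and 6 called lower. The falls left were TRIM3, TRIM24, TRIM28, TRIM36, TRIM47 and TRIM68. With equal sums, TRIM3 (-0.049) and TRIM36 (-0.043) were near 0 and the others turned positive. TRIM14, TRIM5, TRIM6 and TRIM59, the falls furthest from 0 with equal sums, were all among the members left out.

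Across all genes, rises went with long, low transcripts. The median transcript length was 3652 bases for all genes called higher and 2769 bases for all called lower, and the median of the mean FPKM was 3.93 for all called higher and 12.9 for all called lower. TRIM genes called higher had a median length of 3576 bases and a median mean of 4.23 FPKM, and those called lower had 3378 bases (10 of 12 with a known length) and 9.76 FPKM. The part of length and level in the TRIM calls was not tested. The luminal markers KRT8, KRT18, KRT19, EPCAM, CDH1, GATA3, ESR1 and FOXA1 lay between 18.2 and 623 FPKM in persister cells and between 12.4 and 841 FPKM in parental cells, whereas ERBB2 was listed at 0 in both groups and PGR had no estimate. The 9 immune markers summed to 6.06 FPKM in persister and 7.11 FPKM in parental cells, nearly all from LYZ and CD68, with PTPRC and CD3E at or near 0. The 7 fibroblast markers summed to 8.75 FPKM in persister and 13.5 FPKM in parental cells, almost all from COL1A1, and the 5 endothelial markers to 0.138 FPKM in persister and 1.10 FPKM in parental cells. Of the 8 covered luminal markers, 6 were called lower and 2 higher, and with equal sums the fall of FOXA1 turned positive. COL1A1 and the 2 covered endothelial markers were called lower as well. All 6 proliferation markers were called lower, against 39.0% of all covered genes. They summed to 66.7 FPKM in persister and 393 FPKM in parental cells, and the part of growth arrest in the TRIM differences was not tested.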

How the data were processed

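Polyadenylated RNA of 3 persister and 2 parental BT474 libraries was sequenced without strand, per the labels' protocols. Tools were CASAVA 1.8, TopHat2 2.0.6 and Cufflinks with Cuffdiff 2.0.2, on build hg18, per the submitters' processing notes. The authors deposited 1 table of 18803 rows with an FPKM value per group, per the file headers, and settings and library scaling are not given in the sources used. The q-value is the authors' own adjusted p, deposited with the table, and is listed as 0 in 2712 rows, the smallest value above 0 being 1.2e-15. The fold change deposited by the authors was used only to find rows without an estimate (fold and q-value both 1 although FPKM differed by over 0.6%, none of them a TRIM gene).

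No counts or values per library are held, so no SD, interval or test of replicates was computed, nor could depth be given. The labels number the libraries as replicates and do not say whether they came from separate cultures, so the authors' q-values may measure technical spread. Differences are log2(FPKM + 1), persister minus parental. The TRIM members, the 25 gene lists and the settings were chosen with earlier results of these data known. Every TRIM gene could be named, those with the 10 largest rises and falls, the highest of each subfamily and 10 set genes in full, and up to 4 called genes of each other list with the largest difference; MID1, PML, RIG-I, MX1, MDM2, CALCOCO2, TRIM39 and genes that reverse under equal sums were named after their values were seen, and markers were named to check the cells. Protein features were not analysed here. Promoter windows are from RefSeq (GRCh38.p14), transcript lengths, exon overlap (at least 5% of bases) and shared 50-base words from GENCODE 29, whose build is not that of the table, so no coordinates were joined to it. Python 3.11.15, pandas 2.3.3 and numpy 2.4.6 were used, and the counting steps were tested on simulated data.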

Additional observations from a re-analysis of the deposited data

How the results depend on the processing

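The count of TRIM genes called higher (22) and lower (12) was 16 and 12 with a minimum of 1 FPKM, 20 and 12 with a q-value under 0.01, and 20 and 12 with the lower row of repeated symbols. With a difference of at least 1 it was 3 and 1. With both groups scaled to the same sum and the authors' q-values kept, it was 27 and 7. The called genes TRIM16 (0.078), TRIM24 (0.13), TRIM28 (0.056), TRIM47 (0.048) and TRIM68 (0.025) turned positive on that scaling. Leaving out rows that share sequence or position with other genes, chosen after seeing the data, gave 18 and 6 among 34 covered genes. The rows left out held 4 of the rises and 6 of the falls, so the falls lost the larger part. The median of 0.085 became 0.20 when centred on expressed genes and 0.40 with equal sums, by construction of these scalings. It lay between 0.031 and 0.15 under the other settings. With a pseudocount of 0.1, all 45 covered genes kept their direction. Leaving out single libraries was not run. No paired analysis was possible because the table holds 1 combined value per group. Depth is unknown, so the least TRIM change that could be called cannot be stated.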
